A study of Mus musculus with 2 samples.

Results

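Matricellular proteins are secreted into the extracellular matrix and act on cells there rather than serving as its main scaffold, and 8 of their genes were followed here in mouse liver: Postn, Tnc, Sparc, Sparcl1, Thbs1, Thbs2, Spp1 and Fn1. They were taken by name from a list that was drawn up with earlier results of these data known, and were matched by Ensembl identifier among the 30406 genes that both deposited matrices hold. All 8 had at least 1 UMI in the kept cells of each library, where a UMI is a molecular barcode that marks 1 captured RNA molecule. The study compared 1 library of liver cells from healthy mice with 1 from mice injured with CCl4, a solvent that damages the liver when injected repeatedly. Both groups carried Col1a2CreER:Rosa26tdTomato, a tamoxifen-inducible Cre driven by the promoter of a collagen gene with a red reporter, on a C57BL/6 background, and the study's methods describe injury of young adults of both sexes. The study gave CCl4 in corn oil into the peritoneum over a course of weeks. Livers were perfused with pronase and collagenase, the cells were purified on a Nycodenz gradient, and the study describes them as CD45- cells taken by magnetic sorting. How many mice entered each library, and whether these mice received tamoxifen, is not given in the sources used here. With 1 library a group no test over animals exists, and every interval below covers counting error only.

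Periostin (Postn) and tenascin-C (Tnc) are bound by integrins and are classic products of activated fibroblasts in healing wounds. SPARC and SPARC-like 1 (Sparcl1) bind collagen, thrombospondin 1 and 2 (Thbs1, Thbs2) bind the receptors CD36 and CD47, osteopontin (Spp1) is an integrin and CD44 ligand known as a product of bile duct cells and of some macrophages, and fibronectin (Fn1) is a matrix glycoprotein that hepatocytes also secrete into plasma. In injured liver, hepatic stellate cells and portal fibroblasts become matrix-producing myofibroblasts, and the mesothelium covers the surface of the organ.

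In assembly GRCm38.p6 the genes lie on separate stretches of the genome: Fn1 (chr1:71585473-71653280), Thbs1 (chr2:118111876-118127133), Postn (chr3:54359267-54391041), Tnc (chr4:63959785-64047015), Sparcl1 (chr5:104079108-104114088), Spp1 (chr5:104435111-104441053), Sparc (chr11:55394159-55420080) and Thbs2 (chr17:14665500-14694262). Start-site sequences are given for 3 members with different patterns in these data: Postn and Thbs2, whose UMIs came mostly from mesenchymal-like cells after CCl4, and Sparc, which was also high in endothelial-like and mesothelial-like cells of both libraries. Each is the 250 bases before a RefSeq start site on the strand of the gene (assembly GRCm38.p6, the release behind mm10, the mouse build that the submitters' processing notes name), and capitals mark TATAAA or its reverse complement TTTATA, the TATA-box letters. The Postn window is chr3:54360857-54361106 on the plus strand, at the second of 2 listed start sites, the Thbs2 window chr17:14694263-14694512 on the minus strand, and the Sparc window chr11:55420081-55420330 on the minus strand.
Postn: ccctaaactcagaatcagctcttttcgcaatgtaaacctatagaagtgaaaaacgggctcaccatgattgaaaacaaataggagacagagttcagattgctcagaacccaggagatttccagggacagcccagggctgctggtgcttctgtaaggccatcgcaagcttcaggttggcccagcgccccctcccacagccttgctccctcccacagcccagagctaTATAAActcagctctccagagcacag
Thbs2: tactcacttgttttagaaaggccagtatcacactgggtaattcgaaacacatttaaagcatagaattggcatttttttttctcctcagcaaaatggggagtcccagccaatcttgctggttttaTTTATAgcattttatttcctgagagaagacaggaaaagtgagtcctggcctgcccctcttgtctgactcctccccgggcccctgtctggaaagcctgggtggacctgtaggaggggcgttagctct
Sparc: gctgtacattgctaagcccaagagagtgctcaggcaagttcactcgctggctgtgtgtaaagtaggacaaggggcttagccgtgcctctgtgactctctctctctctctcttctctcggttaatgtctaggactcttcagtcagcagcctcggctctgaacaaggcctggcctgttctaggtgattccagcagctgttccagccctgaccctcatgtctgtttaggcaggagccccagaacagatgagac
The letters TATAAA began 26 bases before the second Postn start site, while the window of the first, chr3:54359017-54359266, held no match on either strand. The match in Thbs2 lay 126 bases before the start, and the Sparc window held none on either strand. Of 32851 RefSeq windows of 250 bases, 12.4% hold these letters on either strand, so a match is a description of the window and not of a working site. Entries were at hand for 5 of the 8 members, Tnc and Spp1 also having a window with TATAAA or TTTATA, and 3 further motifs were searched on both strands in their 8 windows. The AP-1 letters TGANTCA, found in 6.75% of all windows, and the TEAD letters GGAATG, found in 12.6%, occurred in none of them, and the GC-box letters GGGCGG, found in 32.7%, occurred only in the 2 overlapping windows of Tnc.

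Once low-quality droplets and likely doublets were removed, the healthy library kept 5602 cells at a median depth of 6783.5 UMIs and the CCl4 library 7314 cells at 11876 UMIs. Clusters were named from marker lists, and "-like" marks such a name. Healthy and CCl4 cells numbered 8 and 3106 in the mesenchymal-like class, 231 and 1481 in the mesothelial-like, 2539 and 648 in the endothelial-like, 1247 and 16 in the cholangiocyte-like, and 327 and 329 in the hepatocyte-like class, which is thus small although the series' design text speaks of hepatocytes. There were 19 healthy and 377 CCl4 immune-like cells, and 112 of the latter were T and NK cell-like. The classes of the 2 libraries rest largely on different clusters: the endothelial-like class is made mostly of clusters 0 and 1 in the healthy and cluster 4 in the CCl4 library, the mesothelial-like class of cluster 7 against clusters 19 and 22, and the hepatocyte-like class of clusters 2 and 8 against 8 and 20. Levels are UMIs of a gene scaled to 1e+06 UMIs of the class (CPM) with an exact Poisson 95% interval in parentheses. Because RNA freed from broken cells enters every droplet, each level in the CCl4 library was set beside T and NK cell-like cells, which are not known to make most of these proteins. These cells held the collagen gene Col1a1 at 579 CPM, or 2.61 UMIs per droplet. Macrophage and monocyte-like cells held 156 CPM, or 0.905 per droplet, and neutrophil-like cells 141 CPM, or 0.547. The background level thus differs with the immune class used, and the reason was not tested. The cholangiocyte-like class, cluster 3, had 11 of 12 cholangiocyte markers but also 9 of 14 hepatocyte markers. It held the hepatocyte gene Alb at 5561 CPM in the healthy and 13168 CPM in the CCl4 library, beside 30679 and 4778 CPM in hepatocyte-like cells. A hepatocyte part in this class was not tested.

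**Figure D1:**
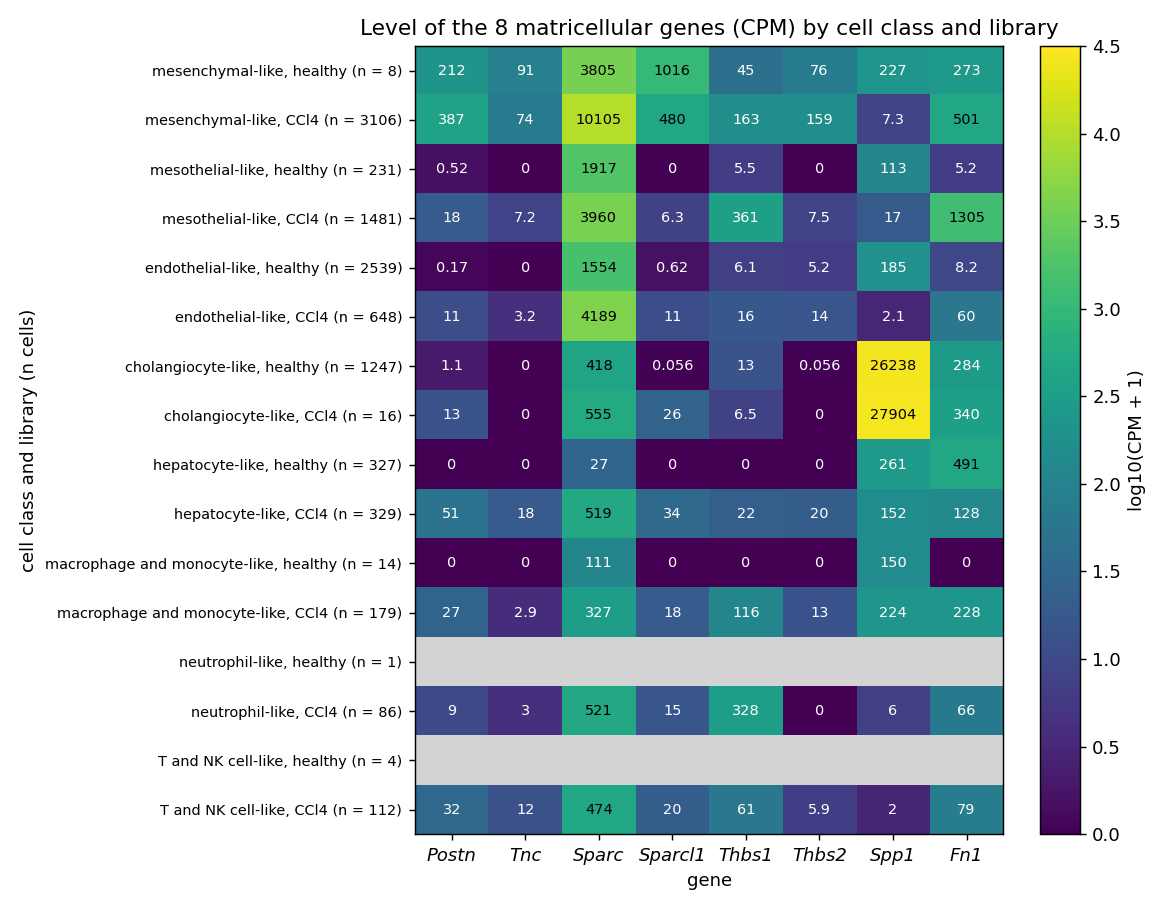
Level of each gene in CPM (numbers in the cells; colour is log10 of CPM + 1) by cell class and library, with the number of cells; classes with fewer than 8 cells are grey. Postn, Tnc, Sparc, Sparcl1 and Thbs2 were highest in the CCl4 mesenchymal-like cells among classes of at least 50 cells, Thbs1 and Fn1 in the CCl4 mesothelial-like cells, and Spp1 in the healthy cholangiocyte-like cells.

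In mesenchymal-like cells of the CCl4 library, 7 of the 8 genes were at least 2-fold above T and NK cell-like cells with an interval of the ratio that left out 1, against 23.4% of the 10633 genes compared. Spp1 was the exception, at 7.31 CPM. Thbs1, which immune cells also held, was 2.66 (1.87 to 3.91) times the T and NK cell-like level, and only 1.18 (1.04 to 1.34) times that of all immune-like cells, against which the other 6 stood at 3.15 to 26.5 times. By the measure of highest class, 5 of the 8 genes peaked there among populations of at least 50 cells. The class supplied 93.3% of the library's Sparcl1 UMIs, 86.2% of Thbs2, 85.7% of Postn, 82.4% of Tnc and 70.2% of Sparc, but only 37.6% of Thbs1 and 30.9% of Fn1, while it held 42.5% of the cells.

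Postn stood at 387 CPM (381 to 393) in the CCl4 mesenchymal-like cells and at 212 CPM (116 to 356) in the 8 healthy ones, where it rested on 14 UMIs. The ratio of the CCl4 class to T and NK cell-like cells was 12.2 (7.51 to 21.3). Every other class of the CCl4 library lay far below. The order after mesenchymal-like cells ran from hepatocyte-like cells at 50.7 CPM through T and NK cell-like cells at 31.7, macrophage and monocyte-like cells at 27.0, mesothelial-like cells at 18.3, cholangiocyte-like cells at 13.1 and endothelial-like cells at 10.6 to neutrophil-like cells at 9.03, and each neighbour in that order overlapped the next in its interval. After each cell was thinned to 2000 UMIs, which left out 57 and 11 shallower cells, 44.5% of mesenchymal-like and 3.56% of T and NK cell-like cells held a Postn UMI. Unthinned, the shares were 79.9% and 8.93% at median depths of 13843.5 and 4122.5 UMIs. In the healthy library Postn was scarce, with 42 UMIs in all, 20 of them in cholangiocyte-like cells at 1.12 CPM.

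Tnc too was highest in mesenchymal-like cells of the CCl4 library. Mesenchymal-like cells held 73.7 CPM (71.2 to 76.3), a level 6.20 (2.85 to 16.9) times that of T and NK cell-like cells, and the next classes, hepatocyte-like at 18.2 CPM and T and NK cell-like at 11.9 CPM, overlapped. In the healthy library all 6 Tnc UMIs lay in a single mesenchymal-like cell. No UMI was found in 2539 healthy endothelial-like cells, which allows a share of cells with a UMI of up to 0.118%, nor in 1247 cholangiocyte-like cells, which allows up to 0.241%.

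Thbs2, a thrombospondin of fibroblasts, stood at 159 CPM (155 to 163) in CCl4 mesenchymal-like cells, 26.7 (9.13 to 129) times the level in T and NK cell-like cells, where it had 3 UMIs. Hepatocyte-like cells followed at 20.3 CPM, endothelial-like cells at 14.3 and macrophage and monocyte-like cells at 12.5, and these overlapped in turn. In the healthy library endothelial-like cells gave 92 of the 116 Thbs2 UMIs, at 5.19 CPM (4.18 to 6.37) over 2539 cells. The 8 mesenchymal-like cells gave 5 UMIs but held the highest healthy level, 75.8 CPM (24.6 to 177). The 19 healthy immune-like cells held no Thbs2 UMI. The CPM ratio of endothelial-like cells to them had a lower bound of 0.280, below 1. Of the 92 endothelial-like UMIs, 85 came from cluster 0, whose leading genes include the sinusoidal genes Clec4g and Lyve1, at 5.96 CPM (4.76 to 7.36).

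Sparcl1 stood at 480.5 CPM (474 to 487) in CCl4 mesenchymal-like cells, 24.2 (13.2 to 50.6) times the T and NK cell-like level. No other named class exceeded 34.4 CPM, the level in hepatocyte-like cells, whose interval overlapped those of cholangiocyte-like and T and NK cell-like cells. The healthy library held 305 Sparcl1 UMIs, almost all of them in few cells. The 8 mesenchymal-like cells gave 67 at 1016 CPM (787 to 1289.9), and 15 cells of cluster 9, which has mesenchymal markers but stayed unnamed because haemoglobin genes are among its leading genes, gave 224 at 2345 CPM (2048 to 2673). No UMI was seen in 231 healthy mesothelial-like cells, which allows a share of cells with a UMI of up to 1.30%.

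Sparc was detected in many classes of both libraries. Healthy levels ran from 3805 CPM (3349 to 4306) in mesenchymal-like through 1917 CPM (1874 to 1962) in mesothelial-like and 1554 CPM (1536 to 1573) in endothelial-like to 418 CPM (409 to 428) in cholangiocyte-like cells, and none of these 4 intervals overlapped. The 4 healthy T and NK cell-like cells stood at 993 CPM (729.6 to 1320.4). With CCl4 the same 4 classes stood at 10105 CPM (10075 to 10135), 3960.5 CPM (3937 to 3984), 4189 CPM (4129 to 4251) and 555 CPM (443 to 687), so that endothelial-like cells stood above mesothelial-like ones by a small margin. The CCl4 cholangiocyte-like, neutrophil-like and hepatocyte-like levels, 555, 521 and 519 CPM, overlapped each other and were close to the 474 CPM of T and NK cell-like cells. Per droplet, the CCl4 endothelial-like cells held 13.1 (11.6 to 15.0) times the Sparc UMIs of T and NK cell-like cells. Endothelial-like cells gave 58.1% of the healthy library's Sparc UMIs and 2.92% of the CCl4 library's, in which they were also fewer.

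Thbs1, which platelets release and which many cell types induce after injury, was highest not in mesenchymal-like but in mesothelial-like cells of the CCl4 library, at 361 CPM (354 to 368). Neutrophil-like cells followed at 328 CPM (269 to 396), an overlapping interval, then mesenchymal-like cells at 163 CPM (159 to 167), macrophage and monocyte-like cells at 116 CPM (95.9 to 138) and T and NK cell-like cells at 61.4 CPM (41.7 to 87.2). The immune-like signal was uneven between cells. In neutrophil-like cells 23.3% of cells held a UMI and the top 10% of cells gave 76.1% of the UMIs, and in T and NK cell-like cells 1 cell held 16 of 31. Endothelial-like cells stood at 16.4 CPM (12.8 to 20.6), below the T and NK cell-like level. In the healthy library the cholangiocyte-like cells gave 59.0% of 400 Thbs1 UMIs at 13.2 CPM (11.6 to 15.0). Among healthy endothelial-like cells, cluster 1, led by vascular genes such as Vwf and Gja5, held 107 of 108 Thbs1 UMIs at 38.1 CPM (31.2 to 46.0), carried by 18 of its 404 cells.

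Fn1 had its highest level in CCl4 mesothelial-like cells, 1305 CPM (1291 to 1318), which gave 53.3% of that library's Fn1 UMIs. Mesenchymal-like cells followed at 501 CPM (495 to 508), cholangiocyte-like cells at 339.7 CPM (254 to 445) and macrophage and monocyte-like cells at 228 CPM (199 to 259), of which the last 2 overlapped. The healthy library gave Fn1 from other classes. There, hepatocyte-like cells stood at 491 CPM (466 to 518) and cholangiocyte-like cells at 284 CPM (277 to 292), while mesothelial-like cells held 20 UMIs at 5.21 CPM (3.18 to 8.04). The healthy hepatocyte-like level came mostly from the 48 cells of cluster 2, at 697 CPM (659.8 to 736). That cluster had a median of 42576.5 UMIs per cell and occurred in the healthy library alone. In cluster 8, which holds hepatocyte-like cells of both libraries, Fn1 stood at 66.7 CPM (50.9 to 85.8) in healthy and 74.1 CPM (46.5 to 112) in CCl4 cells, with overlapping intervals.

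Spp1 belonged to cholangiocyte-like cells in both libraries, at 26238 CPM (26163 to 26313) in the healthy and 27904 CPM (27074 to 28754) in the CCl4 library, a ratio of 1.06 (1.03 to 1.10). Every one of the 1247 healthy and 16 CCl4 cells held Spp1, with up to 2314 UMIs in a cell. Their share of all Spp1 UMIs was 97.2% in the healthy library. In the CCl4 library it was 60.0%. Neither share counts the unnamed cluster 13, which had 9 of 12 cholangiocyte markers and whose high Spp1 level is given under other observations. In the other named classes of the healthy library Spp1 lay close to the droplet background. Healthy mesothelial-like, endothelial-like, mesenchymal-like and hepatocyte-like cells held 1.87, 1.29, 1.88 and 2.21 Spp1 UMIs per droplet, against 1.53 in the 19 immune-like cells, and the ratios to that background were 1.23 (0.841 to 1.85), 0.846 (0.588 to 1.27), 1.23 (0.612 to 2.37) and 1.45 (0.999 to 2.18). In CPM the interval of the ratio held 1 for the first 3 of these classes but not for hepatocyte-like cells, at 1.83 (1.26 to 2.75). In the CCl4 library macrophage and monocyte-like cells held 224 CPM (196 to 254), carried by 14 of 179 cells, 1 of which held 153 of the 232 UMIs. Hepatocyte-like cells stood at 152 CPM, with 49 of 75 UMIs in 1 cell, and mesothelial-like cells at 17.4 CPM.

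**Figure D2:**
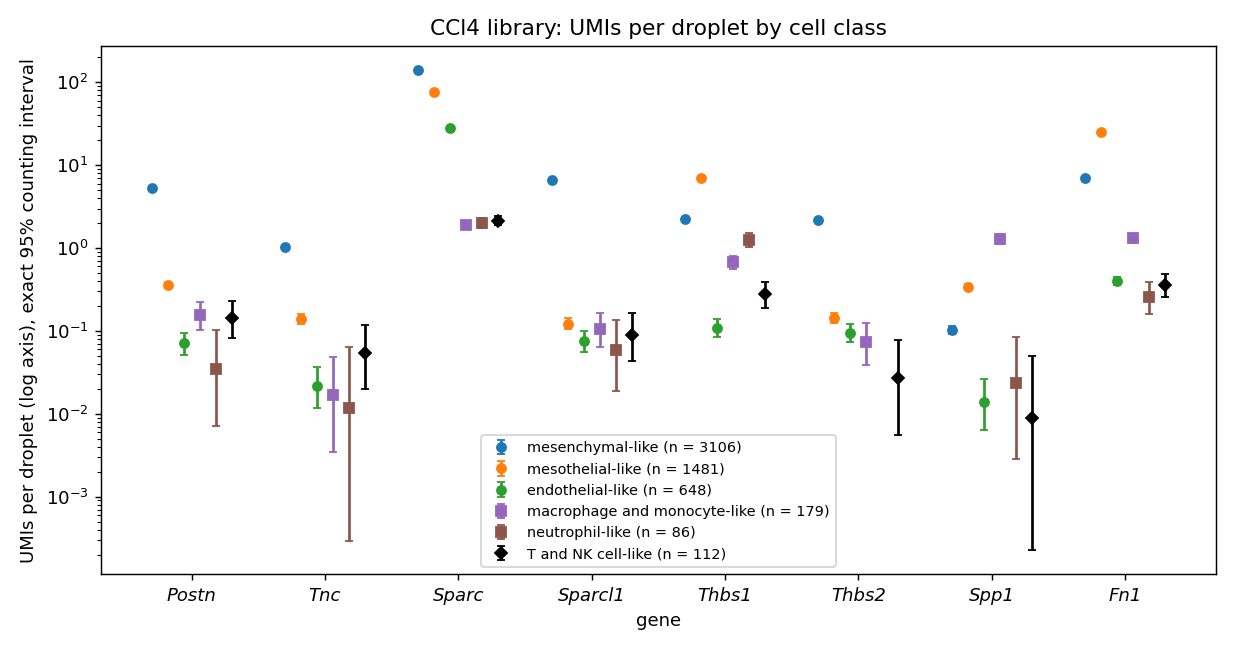
UMIs per droplet of each gene in 6 cell classes of the CCl4 library (log axis, bars are exact 95% counting intervals; black diamonds are T and NK cell-like cells, and a class with no UMI is not drawn). Postn, Tnc, Sparcl1 and Thbs2 in mesenchymal-like cells lay at 19.1 to 82.4 times the diamonds, whereas in endothelial-like cells Postn, Tnc, Sparcl1, Thbs1 and Fn1 lay at 0.396 to 1.12 times.

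The same classes were then compared between the libraries, to ask which members were higher in injured liver within a class. A gene counted as higher or lower where its CPM differed at least 2-fold and the interval of the ratio left out 1. Over all kept cells 7 of the 8 genes were higher with CCl4, against 16.4% of genes tested, and Spp1 was lower, against 24.7%. The ratio was 339 (156 to 925) for Tnc, 245 (181 to 339) for Postn, 38.4 (34.3 to 43.1) for Sparcl1, 36.1 (30.1 to 43.7) for Thbs2 and 24.7 (22.4 to 27.3) for Thbs1. It was 6.90 (6.84 to 6.97) for Sparc and 5.35 (5.22 to 5.49) for Fn1, and Spp1 was 129 (126 to 132) times higher in healthy cells. These values carry the change in cell numbers, since mesenchymal-like cells were 0.143% of the healthy and 42.5% of the CCl4 cells and cholangiocyte-like cells 22.3% and 0.219%.

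In mesothelial-like cells, which cover the liver, 7 genes were higher with CCl4 and 1 was lower, against 12.1% and 15.9% of the 13300 genes tested. Fn1 went from 5.21 to 1305 CPM, a ratio of 250.5 (162 to 410.1), and Thbs1 from 5.47 to 361 CPM, a ratio of 66.0 (43.2 to 107). Sparc differed less, by 2.07 (2.02 to 2.12). These 3 also stood above T and NK cell-like cells in the CCl4 library, by 16.5 (12.1 to 23.0) for Fn1, 5.87 (4.14 to 8.65) for Thbs1 and 8.36 (7.36 to 9.53) for Sparc in CPM. Postn, Tnc, Sparcl1 and Thbs2 were low in both libraries. Postn was 35.2 (9.70 to 292) times higher on 2 healthy UMIs, and Tnc, Sparcl1 and Thbs2, with no healthy UMI, were at least 9.20-fold, 8.08-fold and 9.60-fold higher against a floor of 3 UMIs in the class. In CPM, their CCl4 levels of 18.3, 7.18, 6.31 and 7.50 did not exceed those of T and NK cell-like cells beyond the interval. Per droplet, in which mesothelial-like cells are deeper, the ratio to T and NK cell-like cells was 2.49 (1.52 to 4.38) for Postn, 2.6 (1.17 to 7.16) for Tnc, 5.42 (1.83 to 26.5) for Thbs2 and 1.37 (0.727 to 2.90) for Sparcl1. The 2 measures thus differ for Postn, Tnc and Thbs2, and 1 cell held 63 of the 206 Tnc UMIs. Spp1 was at 0.155 (0.136 to 0.177) of its healthy level, which was itself at background. Without cluster 22, introduced below, Fn1 kept a ratio of 34.9 and Postn one of 10.4, while Sparc, at 1.55, no longer passed 2-fold. The Fn1 ratio was also 111 with every cell weighing the same, 120.1 at a minimum of 1000 UMIs per cell, 443 at a mitochondrial limit of 10% and 607 after the UMIs per droplet of immune-like cells were subtracted in each library.

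**Figure D3:**
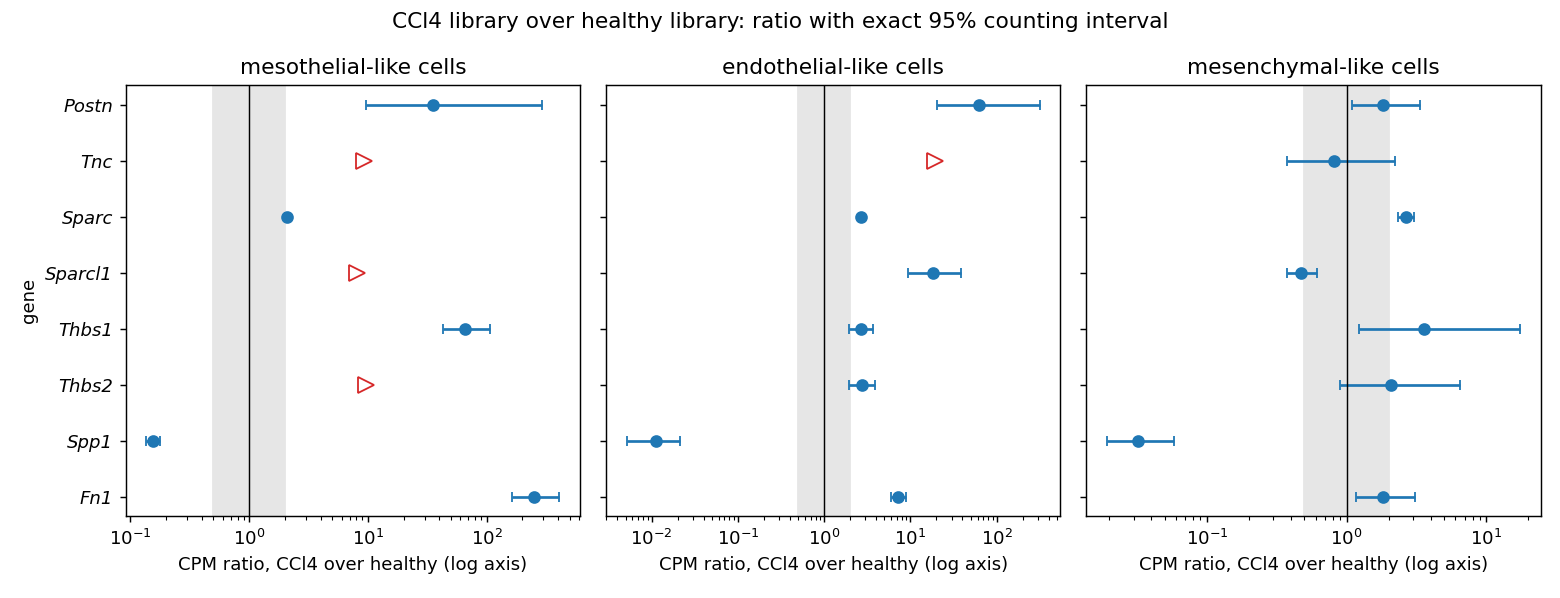
CPM ratio of the CCl4 over the healthy library for each gene in 3 cell classes (log axes with separate ranges; bars are exact 95% counting intervals, open triangles are lower bounds for genes with no healthy UMI, and the grey band spans less than 2-fold). In mesothelial-like cells Fn1 and Thbs1 stand at 250 and 66.0, and Spp1 is to the left of the band in all 3 classes.

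Endothelial-like cells gave the same count, 7 higher and 1 lower, against 7.51% and 15.9% of 12969 genes. The haemoglobin gene Hbb-bs, a mark of red blood cells, stood at 11826 CPM in the CCl4 cells of this class and had no UMI in the healthy ones, beside 12 CPM in CCl4 mesenchymal-like and 7.95 CPM in CCl4 mesothelial-like cells, and its part in the result was not tested. Sparc, with 27545 healthy and 18172 CCl4 UMIs, was 2.70 (2.65 to 2.75) times higher, and held 3.22 (2.52 to 4.18) times the UMIs per droplet of immune-like cells in the healthy library. Spp1, the lower gene, was 89.2 (46.9 to 195) times higher in the healthy cells, at background there. Thbs2 was 2.75 (1.96 to 3.84) times higher, with 3.57 (1.17 to 17.8) times the UMIs per droplet and 2.40 (0.785 to 12) times the CPM of T and NK cell-like cells, which had 3 UMIs. For the other 5 the CCl4 level was not above that of T and NK cell-like cells, beyond the interval, in CPM or per droplet: the ratio of endothelial-like to T and NK cell-like droplets was 0.497 (0.276 to 0.940) for Postn, 0.403 (0.146 to 1.28) for Tnc, 0.847 (0.424 to 1.88) for Sparcl1, 0.396 (0.256 to 0.625) for Thbs1 and 1.12 (0.803 to 1.61) for Fn1. Their ratios to the healthy library, 62.6 (20.1 to 315) for Postn, 18.2 (9.34 to 38.8) for Sparcl1, 7.28 (5.92 to 8.97) for Fn1 and 2.69 (1.96 to 3.66) for Thbs1, and at least 19.1-fold for Tnc therefore have a CCl4 side that does not exceed the immune-like level. Set against Col1a1, a collagen gene of mesenchymal cells, there were 6.28 (4.55 to 8.46) Postn UMIs per 100 Col1a1 UMIs in endothelial-like cells, 5.48 (3.09 to 9.05) in T and NK cell-like cells and 8.82 (8.68 to 8.96) in mesenchymal-like cells. For Tnc these were 1.91 (1.04 to 3.23), 2.05 (0.748 to 4.53) and 1.68 (1.62 to 1.74), which overlap. Not all 5 genes kept the proportions of T and NK cell-like droplets. Fn1 stood at 35.5 (30.7 to 40.9) per 100 Col1a1 UMIs in endothelial-like cells, above the 13.7 (9.59 to 19.1) of T and NK cell-like and the 11.4 (11.3 to 11.6) of mesenchymal-like cells. For Thbs1 the values were 9.69 (7.48 to 12.4), 10.6 (7.08 to 15.4) and 3.72 (3.63 to 3.81), of which the first 2 overlap, and for Sparcl1 6.68 (4.90 to 8.93), 3.42 (1.63 to 6.39) and 11 (10.8 to 11.1), of which the first 2 again overlap. When the UMIs per droplet of immune-like cells were subtracted, 2 genes passed in place of 8, Sparc as higher and Thbs1 as lower. Endothelial-like droplets held 0.159, 0.508 and 0.0223 times the Thbs1, Fn1 and Spp1 UMIs of immune-like ones, so this step sets their CCl4 values to 0. Macrophage and monocyte-like cells held 120 of the 260 immune-like Thbs1, 236 of 298 Fn1 and 232 of 235 Spp1 UMIs, and neutrophil-like cells 109 of Thbs1. Whether the subtraction removes more than free RNA for these genes was not tested. The subtraction left no CCl4 UMI of Postn, Sparcl1, Fn1 or Thbs1 in this class. Over the alternatives that gave a ratio above 0 the Postn ratio ran from 24.7 to 118, Sparcl1 from 15.9 to 52.0, Fn1 from 3.71 to 8.56 and Thbs1 from 2.15 to 7.41.

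The mesenchymal-like comparison rests on 8 healthy cells. In it 2 genes were higher and 2 lower of the 8 genes, against 5.47% and 13.4% of 4023 genes tested. Sparc went from 3805 to 10105 CPM, a ratio of 2.66 (2.35 to 3.02), and Thbs1, on 3 healthy UMIs, had a ratio of 3.59 (1.23 to 17.4). Sparcl1 was 2.11 (1.64 to 2.69) times higher in the healthy cells, and Spp1 31.1 (17.2 to 52.1) times, from a healthy level at background. For Postn the ratio was 1.82 (1.09 to 3.33), for Fn1 1.84 (1.16 to 3.1), for Thbs2 2.09 (0.897 to 6.45) and for Tnc 0.811 (0.372 to 2.21), none of which passed. The count depended on which healthy cells entered the class: under 5 settings that put 9 to 39 healthy cells into it 7 genes passed, with 5 or 6 higher and 1 or 2 lower. Of all genes tested under 4 of them, 4.98% to 7.55% were higher and 12% to 22.7% lower. Under the fifth, each library clustered on its own, 48.2% were higher and 12.4% lower. The Sparcl1 ratio turned to 1.15 with 13 and to 1.18 with 39 healthy cells, and the Tnc ratio to 2.40 with 13, 1.83 with 19, 2.03 with 23 and 8.85 with 39. With 39 healthy cells Postn reached 20.1, Thbs2 19.2, Sparc 15.2, Thbs1 14.5 and Fn1 7.60.

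Among cholangiocyte-like cells, of which the CCl4 library held 16, 4 genes could be compared. Sparcl1 alone passed, as higher, on 1 healthy and 4 CCl4 UMIs with a ratio of 467 (46.2 to 22999), against 2.75% of 7356 genes higher and 5.13% lower. Its CCl4 level was 1.32 (0.302 to 4.57) times that of T and NK cell-like cells. Sparc, at 1.33 (1.06 to 1.64), and Fn1, at 1.19 (0.891 to 1.57), differed less than 2-fold, as did Spp1.

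In hepatocyte-like cells 6 genes were higher and 1 lower with CCl4, against 16.5% and 14.9% of 8643 genes. The 6 higher genes were Postn, Tnc, Sparc, Sparcl1, Thbs1 and Thbs2, of which all but Sparc had no healthy UMI. Sparc went from 27.1 to 519 CPM. The CCl4 cells of this class were shallow, with a median of 898 UMIs. Of these 329 cells, 225 were of cluster 20, at a median of 724 UMIs. That cluster had 8 of 14 hepatocyte and 3 of 14 mesenchymal markers, so its name is less firm. Per droplet, CCl4 hepatocyte-like cells held 0.365 (0.305 to 0.437) times the Sparc, 0.532 (0.273 to 1.07) times the Postn and 0.121 (0.0548 to 0.247) times the Thbs1 of T and NK cell-like cells. In CPM these ratios were 1.10 (0.914 to 1.31), 1.60 (0.820 to 3.20) and 0.363 (0.165 to 0.741). For Tnc, Sparcl1 and Thbs2 they were 0.511, 0.579 and 1.13 per droplet and 1.53, 1.74 and 3.41 in CPM, with intervals that held 1. Fn1 was the gene that was lower, with 3.85 (2.99 to 5.04) times more in the healthy cells, most of it in cluster 2. That direction did not hold under every setting, as the CCl4 over healthy ratio of Fn1 was 1.28 with every cell weighing the same and 1.32 at a mitochondrial limit of 10%. The Sparc ratio was 2.21 at that limit, with 100 CCl4 cells in the class, and 3.38 without doublet removal, with 103. It was 10.0 at a minimum of 1000 UMIs, with 141 cells, and 41.4 with each library clustered on its own, with 337. After subtraction of the immune-like UMIs 2 members passed in place of 7, Fn1 and Spp1, both as lower, and none of the 6 higher genes did. A minimum of 20 UMIs left 3.

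Within the CCl4 library the members differed between clusters of one class. The mesenchymal-like cells fell into cluster 18 (1132 cells, with stellate markers, led by Angptl6, Rgs5 and Colec10), cluster 11 (411 cells, led by Ereg, Acta2 and Tagln), cluster 10 (1327 cells, led by Dpep1, Fgl2, Casq2 and Mfap4) and cluster 5 (236 cells, led by the cell-cycle genes Ccnb2 and Kif20a). The members were left out of the genes used for clustering. Cluster 10 against cluster 18 had the most members past the rule of these contrasts, with 2 genes higher and 2 lower, against 10.4% and 4.62% of 14762 genes.

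Sparcl1 stood at 684 CPM (672 to 696) in cluster 10 and 262 CPM (254 to 270.4) in cluster 18, a ratio of 2.61 (2.52 to 2.70), and Thbs1 at 222 and 104 CPM, a ratio of 2.13 (2.01 to 2.26). Fn1 and Postn ran the other way. Fn1 was at 223 CPM in cluster 10 and 734 in cluster 18, 3.30 times higher in the latter, and Postn at 191 and 547 CPM, 2.87 times higher. Tnc, Sparc and Thbs2 differed less than 2-fold between these clusters. In cluster 11, Tnc reached 117 CPM (109 to 125), its highest level in a named cluster, 1.5 (1.37 to 1.64) times that of cluster 18, while Postn, at 503 CPM, and Sparc, at 11703, were close to it. Sparcl1 in cluster 11 was 2.09 (2.0 to 2.19) times that of cluster 18 and Spp1 2.69 (1.94 to 3.74) times, so that 2 genes were higher and 0 lower, against 3.45% and 1.42% of 13140 genes. In the cycling cluster 5, only Spp1 passed, at 23.7 against 4.61 CPM, against 9.18% of 12509 genes higher and 1.73% lower.

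**Figure D4:**
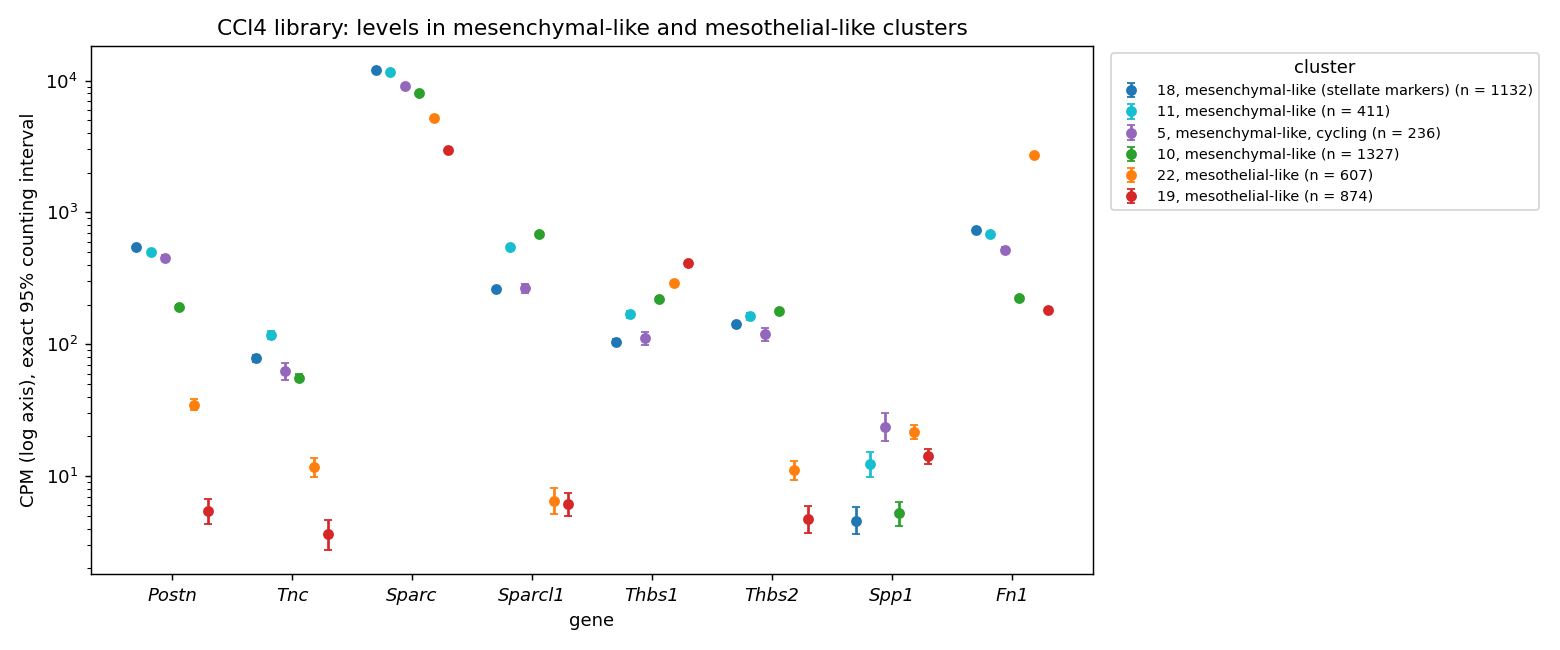
Level of each gene (CPM, log axis, bars are exact 95% counting intervals, many smaller than the point) in 4 mesenchymal-like and 2 mesothelial-like clusters of the CCl4 library. Sparcl1 was highest in cluster 10, Postn and Fn1 were lower in cluster 10 than in clusters 18, 11 and 5, and Fn1 reached 2737 CPM in cluster 22 against 182 in cluster 19.

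The mesothelial-like cells of the CCl4 library were cluster 19 (874 cells, led by Vnn1, Cpe and Muc16) and cluster 22 (607 cells, led by Serpinb2, Enpp2 and Cxcl5). Cluster 22 had 9 of 10 mesothelial and 9 of 14 mesenchymal markers, so its name is less firm. Against cluster 19 it had 4 genes higher and 0 lower, against 7.94% and 14.1% of 14736 genes. Fn1 stood at 2737 CPM (2708 to 2766) and 182 CPM (175 to 188), a ratio of 15.1 (14.5 to 15.7). For Postn the ratio was 6.43 (5.10 to 8.19), for Tnc 3.25 (2.39 to 4.49) and for Thbs2 2.33 (1.75 to 3.13), with 1 cell of cluster 22 holding 63 of its 148 Tnc UMIs, from levels of 5.41, 3.61 and 4.73 CPM in cluster 19. Thbs1 did not follow Fn1, with 293 CPM in cluster 22 and 414 in cluster 19. In healthy cluster 7, Fn1 stood at 3.96 and Thbs1 at 5.29 CPM, so both genes were higher in either CCl4 cluster.

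Over the 25 cluster-by-library populations of at least 50 cells, the genes whose log2(CPM + 10) ran most like each member were found among 8109 genes. Populations from 1 library share its depth and background, so the correlations are descriptions. Postn ran most like Tnc (r = 0.97), Frzb (r = 0.97) and Pdgfrb (r = 0.97), and Tnc most like Pdgfrb (r = 0.98), Postn (r = 0.97) and Robo2 (r = 0.97). The nearest genes of Sparc were Crtap (r = 0.97), Ppic (r = 0.95) and Serpinh1 (r = 0.95), of which Crtap and Serpinh1 encode collagen-processing proteins of the endoplasmic reticulum. Sparcl1 ran with Myh11 (r = 0.98), Mmp2 (r = 0.97) and Lmod1 (r = 0.97), and Thbs2 with Igsf10 (r = 0.98), Tcf21 (r = 0.98) and Myh11 (r = 0.97). Myh11 and Lmod1 are smooth muscle genes. Likeness was weaker for Thbs1, with Pcdh7 (r = 0.85), Gm12840 (r = 0.84) and Actn1 (r = 0.84), and for Fn1, with Sh3pxd2b (r = 0.88), Cxcl1 (r = 0.87) and Bmp1 (r = 0.84). Spp1 ran most like Tm4sf4 (r = 0.93), Slc2a2 (r = 0.90) and Prox1 (r = 0.90), and against every other member its correlation was negative, from -0.56 with Sparc to -0.17 with Fn1.

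Other matricellular genes, 20 in number, were read in the same classes. In mesothelial-like cells 13 could be compared, of which 3 were higher with CCl4 and 5 lower, against 12.1% and 15.9% of all genes. The list's median log2 ratio was -0.07, beside -0.11 over all genes tested and 3.23 for the 8 members. Tgfbi, a secreted matrix protein induced by TGF-beta, went from 0.260 to 30.4 CPM on 1 healthy UMI with a ratio of 117 (20.9 to 4623), Ccn3 was at least 29.0-fold higher, and Ccn4 had a ratio of 2.61 (1.5 to 4.96). On the lower side were Vtn at 0.0285 (0.0128 to 0.0571), Spock3 at 0.115 (0.0319 to 0.399), Ccn5 at 0.119 (0.0400 to 0.348) and Smoc2 at 0.259 (0.235 to 0.285). Healthy Vtn stood at 12.2 CPM in mesothelial-like and 29.1 CPM in endothelial-like cells, beside 1557 CPM in hepatocyte-like cells. Whether Vtn exceeded free RNA in the classes compared here was not tested. In the CCl4 library Tgfbi overlapped T and NK cell-like cells, at 19.8 CPM (9.5 to 36.5), which held no Ccn3 or Ccn4 UMI. In endothelial-like cells 12 could be compared, of which 5 were higher and 3 lower, against 7.51% and 15.9% of all genes. Smoc2 had a ratio of 22.8 (10.1 to 60.3), Thbs4 of 8.17 (1.17 to 90.3) on 2 healthy and 4 CCl4 UMIs, Fstl1 of 2.23 (1.90 to 2.6) and Ccn4 of 2.04 (1.71 to 2.42), and the lower genes were Vtn at 0.0555 (0.0222 to 0.115), Tnxb at 0.439 (0.281 to 0.659) and Smoc1, with 46 healthy UMIs and no CCl4 UMI. The CCl4 levels of Smoc2, Thbs4 and Fstl1, 8.99, 0.922 and 58.6 CPM, were not above those of T and NK cell-like cells, at 19.8 CPM (9.5 to 36.5), 1.98 CPM (0.0502 to 11) and 69.4 CPM (48.3 to 96.5), whereas Ccn4 stood at 45.4 CPM. Of 7 genes compared in mesenchymal-like cells, Fstl1 was higher at 2.51 (1.62 to 4.11), and Vtn, Tgfbi and Ccn2 were lower at 0.0198 (0.00808 to 0.0632), 0.187 (0.165 to 0.213) and 0.202 (0.153 to 0.272), again against 8 healthy cells, with 5.47% and 13.4% of all genes higher and lower. In cholangiocyte-like cells 1 of 6 passed, Tgfbi as higher on 7 healthy and 5 CCl4 UMIs, against 2.75% of all genes. Hepatocyte-like cells had 6 higher and 2 lower of 9, against 16.5% and 14.9%, and all kept cells 10 higher and 3 lower of 16, against 16.4% and 24.7%.

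Receptors of these proteins, 14 in number, were compared likewise. In mesothelial-like cells 12 could be compared, of which 3 were higher and 3 lower, against 12.1% and 15.9% of all genes. The integrin subunit Itga8 had a ratio of 13.9 (3.81 to 116) on 2 healthy UMIs, the osteopontin and hyaluronan receptor Cd44 of 5.99 (4.76 to 7.63) and the fibronectin receptor subunit Itga5 of 3.70 (2.21 to 6.66). T and NK cell-like cells of the CCl4 library held more Itga8, 23.8 CPM (12.3 to 41.5), than the 7.25 CPM of mesothelial-like cells, and no Itga5 UMI. They give no free RNA level for Cd44. It stood at 151 CPM (119 to 189) in them and 499.5 CPM in neutrophil-like cells, but at 3.46 CPM in endothelial-like cells, beside 117 CPM in mesothelial-like cells. Cd36, a thrombospondin receptor, was at 0.254 (0.144 to 0.462) of its healthy level, Itgb3 at 0.267 (0.215 to 0.332) and Stab1, a receptor for SPARC, at 0.370 (0.231 to 0.610). The healthy mesothelial-like levels of Cd36 and Stab1 were 5.21 and 6.51 CPM, on 20 and 25 UMIs. Healthy endothelial-like cells held 387 and 1070 CPM, and whether the mesothelial-like levels exceed free RNA was not tested. In endothelial-like cells 12 could be compared, and 3 were higher and 0 lower, against 7.51% and 15.9%: Cd44 at 12.3 (4.23 to 43.1), Itgb5 at 6.19 (3.91 to 9.92) and Cd36 at 2.11 (2.02 to 2.20). Of these, Cd36, at 815 CPM, stood above the T and NK cell-like level of 1.98 CPM (0.0502 to 11) in the CCl4 library, while Itgb5, at 11.5 CPM, overlapped its 15.9 CPM (6.85 to 31.2) there and Cd44, at 3.46 CPM, was below. In mesenchymal-like cells Itgb3 was the 1 gene of 8 that passed, lower at 0.128 (0.0495 to 0.472), against 13.4% of all genes. In cholangiocyte-like cells 4 of 9 were lower, against 5.13%, Itga5 with no CCl4 UMI and Itgav, Itga9 and Itgb5 at 0.251 (0.0303 to 0.908), 0.353 (0.0961 to 0.907) and 0.309 (0.0842 to 0.794) on 2 to 4 CCl4 UMIs. Hepatocyte-like cells had 3 higher and 3 lower of 11, against 16.5% and 14.9%, and all kept cells 6 higher and 5 lower of 14, against 16.4% and 24.7%.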

How the data were processed

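Single liver cells were profiled by droplet 3' RNA sequencing in 1 healthy and 1 CCl4 library. The authors deposited raw counts, 1 matrix a library with the number of UMIs for each gene in each barcode, not normalized. Per the file headers the healthy matrix came from Cell Ranger 3.1.0 with 31053 genes and the CCl4 matrix from 6.0.1 with 32285, so gene models differ between the libraries and this difference cannot be told apart from the groups. The submitters' processing notes name fastp, featureCounts 1.6.2, and the builds GRCh38 and mm10. Gene identifiers are mouse, and their role per file is not given in the sources used here.

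Barcodes under 500 UMIs or 200 genes, or with over 30% of UMIs from mitochondrial genes, were dropped, and the highest Scrublet scores were removed at 0.8% per 1000 cells (277 healthy and 487 CCl4 cells). Of 6297 and 8460 barcodes, 10 occur in both files, 8 of them among kept cells. Clustering was done on the pooled libraries with no batch integration (scanpy 1.11.5, 2000 variable genes, 10 principal components, 20 neighbours, Leiden resolution 1, seed 1), leaving out the members, the 20 other matricellular genes and 14 receptors, mitochondrial, ribosomal and sex-linked genes. A marker counted for a cluster at 2 times the median CPM over clusters and a UMI in 10% of its cells. A name needed 3 markers, and clusters with as high a share of markers of another class (75%), with leading genes of another class, or with low UMIs and no own marker among 10 leading genes stayed unnamed. These last thresholds were set after seeing the data, and the unnamed clusters hold 1231 healthy and 1357 CCl4 cells.

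UMIs were summed per class and library. A gene was tested where its higher CPM was above what 3 UMIs give in whichever library had the smaller UMI total, and called at 2-fold with an exact conditional 95% interval leaving out 1. No p-value is given, since each group is 1 library. Shares of cells were recomputed at 2000 UMIs per cell. All 8 members are named throughout, and of the other lists up to 4 genes per direction and class by size of ratio. The members, lists and rules were chosen with earlier results of these data known. Alternatives were TMM scaling (edgeR 4.0.16, R 4.3.3), CPM without the 50 most abundant genes, equal weight per cell, subtraction of immune-like UMIs per droplet, other filters and clusterings, and a minimum of 20 UMIs. UMI totals of the kept cells were 46056151 (healthy) and 87470008 (CCl4).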

Additional observations from a re-analysis of the deposited data

Results flagged for a closer look

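Sparcl1 and Fn1 were higher with CCl4 in some classes and lower in others, a difference that was not tested, since each group is 1 library. For Sparcl1 the CCl4 over healthy ratio was 0.473 in mesenchymal-like cells, against at least 8.08 in mesothelial-like, 18.2 in endothelial-like, 467 in cholangiocyte-like and at least 31.8 in hepatocyte-like cells. The levels behind the higher values were 6.31, 11.3, 26.1 and 34.4 CPM in the CCl4 library, beside 19.8 CPM (9.5 to 36.5) in T and NK cell-like cells. The lower value rests on 67 UMIs in 8 healthy cells.

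For Fn1 the ratio was 250 in mesothelial-like and 7.28 in endothelial-like cells, and 0.260 in hepatocyte-like cells. In cluster 8, the hepatocyte-like cluster that both libraries share, the Fn1 level was 66.7 CPM in healthy and 74.1 CPM in CCl4 cells. Part of the mesothelial-like value belongs to cluster 22, without which it was 34.9. The hepatocyte-like value turned to 1.28 with every cell weighing the same and to 1.32 at a mitochondrial limit of 10%.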

How the results depend on the processing

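Under 12 alternatives, and 3 more that were chosen after seeing the data, 416 of 428 member ratios above 0 kept their direction and 66 moved over 1.5-fold. Ratios that could not be tested or that fell to 0 are not counted, such as endothelial-like Thbs1 after subtraction of the immune-like UMIs. Part of the 416 could not have changed direction. A minimum of 20 UMIs changes which genes are tested and not their ratios. Other clusterings leave the ratios over all kept cells as they were. TMM scaling and CPM without the most abundant genes shift the ratios of a class together, so they can turn only ratios near 1. How many of the 416 were fixed in this way was not counted, so the total does not measure robustness. No paired analysis was possible because each group is 1 library, and no replicate could be left out. After subtraction of the immune-like UMIs per droplet, 2 members passed in endothelial-like cells in place of 8, Sparc as higher and Thbs1, higher before, as lower. In mesenchymal-like cells 2 passed in place of 4, and in cholangiocyte-like cells 0 in place of 1. In hepatocyte-like cells 2 passed in place of 7 (3 at a minimum of 20 UMIs), Fn1 and Spp1, both as lower, and Spp1 had not passed before. The healthy background for the subtraction rests on 19 cells. The CCl4 background for Thbs1, Fn1 and Spp1 came mostly from macrophage and monocyte-like and neutrophil-like cells. In mesenchymal-like cells 7 members passed with no mitochondrial limit (13 healthy cells), a minimum of 1000 UMIs (9), 30 principal components (19), each library clustered on its own (39), or cluster 9 counted in the class. Sparcl1 reversed there to 1.15 with no mitochondrial limit and to 1.18 with each library clustered on its own, where 2 members passed in cholangiocyte-like cells. Mesenchymal-like Tnc, whose interval held 1, turned to 1.83 to 8.85 under 4 of these 5 settings, and Postn reached 20.1 and Sparc 15.2. In hepatocyte-like cells Fn1 reversed to 1.28 with every cell weighing the same and to 1.32 at a mitochondrial limit of 10%, Spp1 turned to 1.03 at a minimum of 1000 UMIs, and Sparc ran from 2.21 to 41.4. Mesothelial-like Fn1 ran from 34.9 without cluster 22 to 607, endothelial-like Postn from 24.7 to 118 and Thbs1 from 2.15 to 7.41. The endothelial-like ranges leave out the subtraction of immune-like UMIs, after which no CCl4 UMI of Postn or Thbs1 remained and Thbs1 counted as lower. The counts for mesothelial-like and all kept cells, for T and NK cell-like background and for highest class stayed within 1.5 times. TMM scaling, which was applied to ratios and not to levels, moved log2 ratios up by 0.08 to 0.44 in the library comparisons other than hepatocyte-like cells, where it moved them by -0.18. The healthy mesenchymal-like and CCl4 cholangiocyte-like values rest on 8 and 16 cells.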

Other observations

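Clusters that stayed unnamed also held members. Cluster 21 (150 CCl4 cells, cycling, with all 14 mesenchymal and all 10 mesothelial markers) had Fn1 at 2008 CPM (1964 to 2054), between clusters 22 and 18, with Postn at 177 CPM and Sparcl1 at 65.5 CPM, and 1 of its cells held 760 Fn1 UMIs. Cluster 23 (92 CCl4 cells, with 15 of 16 endothelial and 13 of 14 mesenchymal markers) had Sparc at 8137 CPM, Postn at 398, Fn1 at 666 and Thbs2 at 96.6 CPM, at a median of 21275 UMIs per cell. Both clusters passed the doublet filter, and whether they hold doublets was not tested further.

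The low-UMI cluster 9 of the CCl4 library (882 cells, median 1409.5 UMIs) had Thbs2 at 200.2 CPM (181 to 221) and Tnc at 109 CPM (94.8 to 124), at the level of cluster 11 for Tnc. Cluster 13, with cholangiocyte markers and a median of 2105.5 UMIs in its healthy cells, held Spp1 at 13394 CPM (13041 to 13754) in 186 healthy and 16978 CPM (16154 to 17833) in 17 CCl4 cells. In cluster 12, with a median of 2002.5 UMIs, 78 CCl4 cells held Thbs1 at 376 CPM (301 to 464), a level that overlapped that of cluster 19.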
